A study of Mus musculus with 2 samples.

Results

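Smooth muscle cells of the normal mouse aorta were divided by their level of Rgs5, and the cells highest in Rgs5 were compared with those lowest in it. The data are droplet single-cell RNA counts of 2 whole aortas, with 1 library for each. The mice were wild type, female, of strain C57/BL6 and 12-week old, and were fed chow. Each aorta was dissected from the root down to the leg arteries so that the ascending, arch, thoracic and abdominal parts are mixed within a library. The genotype, sex, age, diet and tissue digestion (1 h at 37 °C) are the same for all cells compared. All 2159 cells that the authors named VSMC, of 5451 cells in all, were used, 1103 from library 1 and 1056 from library 2. In each cell the Rgs5 UMIs (molecular barcodes, so that each captured transcript counts once) were divided by all UMIs of the cell and given per 10000. The groups were chosen by this measured value alone. Within each library a cell was Rgs5-high above the 75th percentile (276 and 264 cells, 540 in all) and Rgs5-low at or below the median (552 and 528 cells, 1080 in all), and the cells between (275 and 264) were kept apart as Rgs5-middle. Where a pair of values is given for a group, the first belongs to library 1 and the second to library 2.

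Rgs5 is a regulator of G protein signalling: it speeds the hydrolysis of GTP by Gi and Gq alpha subunits and so shortens the signal from receptors for angiotensin II, endothelin, sphingosine 1-phosphate and other constrictors. It is best known as a marker of pericytes, the mural cells of capillaries, and is also made by arterial smooth muscle. Desmin (Des) is the intermediate filament protein of muscle cells and is often used beside Rgs5 to mark mural cells. Hox genes are transcription factors of 4 clusters (A, B, C and D) whose members keep a code of position along the body axis into adult life, low paralogue numbers toward the head and high ones toward the tail.

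Rgs5 itself set the groups, so its values are a description. No Rgs5 UMI was seen in 44.7% of smooth muscle cells of library 1 and 41.4% of library 2, and the highest single cells held 172 and 207 per 10000. The 75th percentile lay at 13.8 and 15.4 per 10000 and the median at 1.39 and 1.49. At the upper limit the lowest Rgs5-high cells had 14.0 and 15.4 and the highest Rgs5-middle cells 13.6 and 15.3 per 10000, and at the lower limit the lowest Rgs5-middle cells had 1.42 and 1.504 and the highest Rgs5-low cells 1.39 and 1.48. Summed over cells, Rgs5 stood at 4094 and 4688 CPM (counts per 1000000 UMIs of the group) in Rgs5-high cells and at 19.6 and 24.98 CPM in Rgs5-low cells. In EC 1, an endothelial population that should lack Rgs5, it stood at 52.8 and 38.8 CPM, with a UMI in 16.2% and 18.1% of cells at median depths of 3286.5 and 4710 UMIs. The cells without a UMI form the largest set in the plot of Rgs5 per cell.

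**Figure D1:**
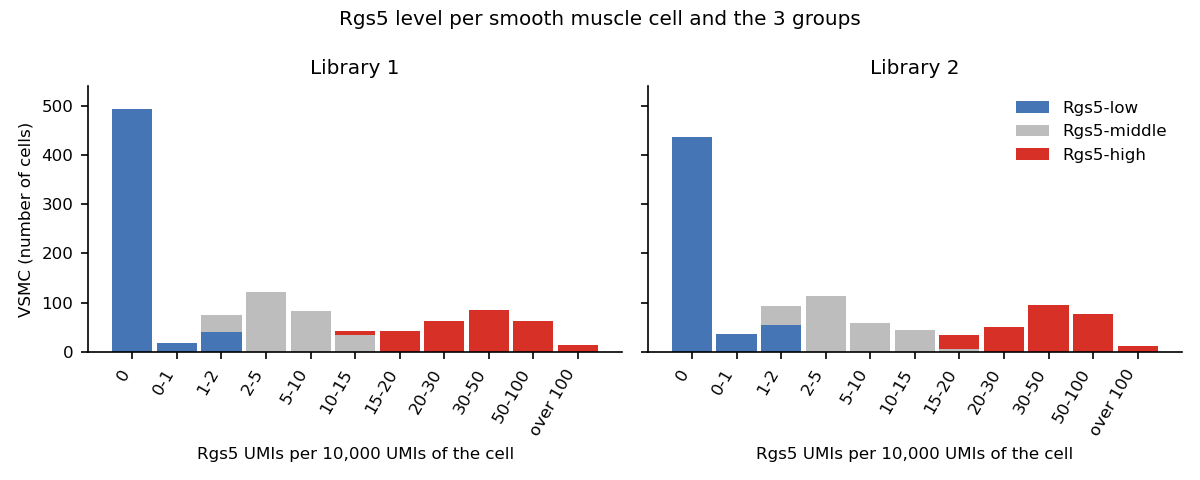
Number of smooth muscle cells (y axis) by Rgs5 UMIs per 10000 UMIs of the cell (x axis, bins of unequal width) in library 1 and library 2, coloured by group. The bar at 0 holds only Rgs5-low cells, and Rgs5-high cells begin at 14.0 and 15.4 per 10000.

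When the UMIs of each cell were split at random into 2 parts and the groups were set on 1 part, the part not used still held 3918 and 4512 CPM of Rgs5 in Rgs5-high cells, against 89.5 and 75.3 CPM in Rgs5-low cells. The parts come from the same cells, so this shows how far the grouping depends on counting noise and is not a second experiment. In these UMIs the Rgs5-low level lay above the 52.8 and 38.8 CPM of EC 1.

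Depth and quality were alike but not equal in the groups. Rgs5-high cells had a median of 4412 and 7508.5 UMIs and Rgs5-low cells 4565.5 and 7275.5, with mitochondrial UMIs at a median of 5.93% and 6.78% in Rgs5-high cells and 5.82% and 6.402% in Rgs5-low cells. Both libraries share 12 cell barcodes, 1 of them on a VSMC in each. The 5 smooth muscle markers Acta2, Myh11, Tagln, Cnn1 and Smtn summed to 36619 and 31976 CPM in Rgs5-high cells and 31386 and 29592 CPM in Rgs5-low cells, so both groups carry the genes of their name. The 7 pericyte-restricted markers summed to 308 and 300 CPM in Rgs5-high cells and 322 and 320 CPM in Rgs5-low cells. Both groups carried Cspg4 (125 and 146 CPM against 156 and 161 CPM) and Abcc9 (109 and 94.9 CPM against 113 and 105 CPM). Of the scarce members, Vtn had 0 and 0 UMIs in Rgs5-high cells and 0 and 2 in Rgs5-low cells, and Higd1b had 3 and 5 against 2 and 2. The 5 endothelial markers summed to 57.4 and 51.6 CPM in Rgs5-high cells and 77.8 and 81.5 CPM in Rgs5-low cells, the 5 fibroblast markers to 451 and 428 CPM against 523 and 477 CPM, and the 5 immune markers to 207 and 138 CPM against 197 and 137 CPM. Haemoglobin UMIs made up 4313 and 2645 CPM of Rgs5-high cells and 10460 and 3680 CPM of Rgs5-low cells, and 5 cells held 56.3% of those of Rgs5-low cells in library 1. Their part in the results below was not tested, apart from the fits that leave out haemoglobin genes or cells with markers of another type.

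To ask what else differs between these cells, UMIs were summed per library and group without Rgs5 and fitted with the library as a block, using the quasi-likelihood test of edgeR with Benjamini-Hochberg adjustment over all 9978 genes tested. A gene was called at an adjusted p under 0.05. Of the genes tested, 589 (5.90%) were called, 302 higher in Rgs5-high cells (3.03% of all tested) and 287 lower (2.88%). Of these, 103 higher and 81 lower genes differed more than 2-fold. DESeq2 called 165 genes on the same sums, and edgeR without the library as a block called 88. The direction was the same in both libraries for 588 of the 589. The exception was Gm26870, with 261 and 4.15 CPM in Rgs5-high cells and 8.31 and 27.9 CPM in Rgs5-low cells, whose call rests on library 1. Below, levels are CPM without Rgs5, differences are log2 folds of Rgs5-high over Rgs5-low with a standard error (the fold divided by the root of the test's F), and n is 2 libraries. Rgs5 groups are not separate samples. The test asks whether the difference, averaged over both aortas, departs from none. A call does not require the same difference in each aorta, as Gm26870 shows.

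**Figure D2:**
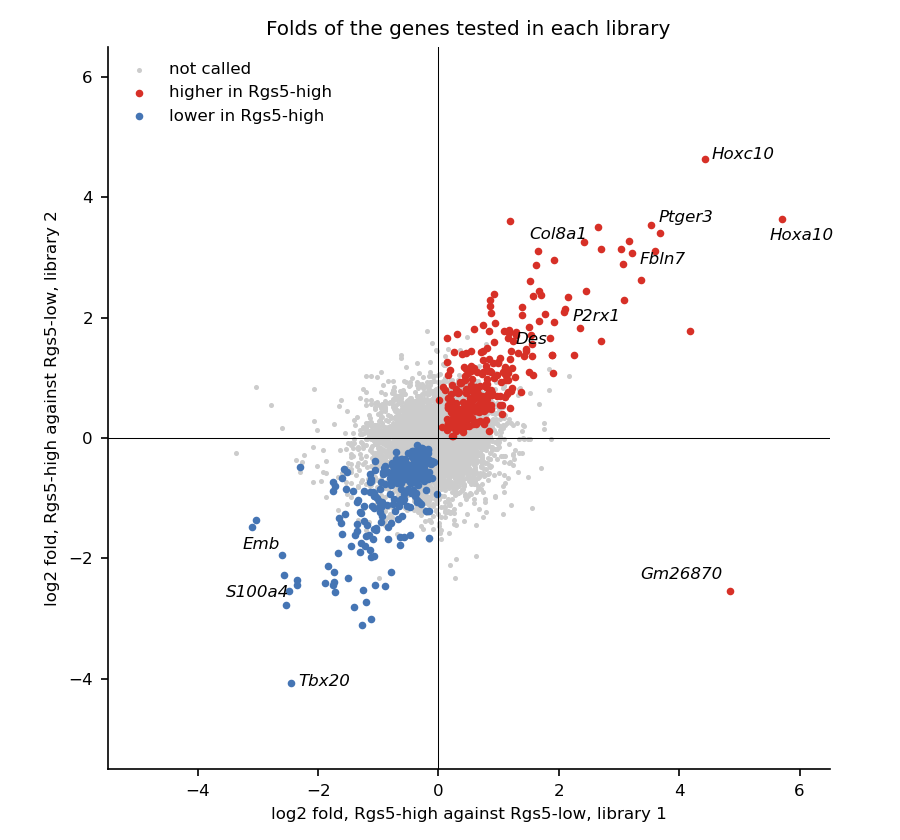
Log2 fold of Rgs5-high over Rgs5-low cells in library 1 (x axis) and library 2 (y axis) for the 9978 genes tested; red and blue points are the 302 higher and 287 lower genes called, grey points the rest. Called genes lie in the upper right and lower left, except Gm26870 at the lower right.

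Des, which the groups did not use, had 171 and 327 CPM in Rgs5-high cells and 76.5 and 103 CPM in Rgs5-low cells. It was higher in both libraries, and the Rgs5-high values lay above both Rgs5-low values (log2 fold 1.49 ± 0.11, adjusted p = 2.03e-10). A Des UMI was found in 18.1% and 34.8% of Rgs5-high cells and in 12.1% and 15.3% of Rgs5-low cells, against 3.38% and 1.44% of EC 1 cells. With every cell thinned to 1300 UMIs the shares were 12.3% and 20.8% in Rgs5-high cells and 6.34% and 8.33% in Rgs5-low cells. Synm, which codes for synemin, a partner of desmin in the filament, had 110 and 114 CPM in Rgs5-high cells and 52.2 and 52.6 CPM in Rgs5-low cells (1.11 ± 0.11, adjusted p = 5.67e-08). Vimentin (Vim), the intermediate filament of mesenchymal cells, went the other way, with 2393 and 3164 CPM in Rgs5-high cells and 3480 and 4574 CPM in Rgs5-low cells (-0.52 ± 0.04, adjusted p = 8.37e-10).

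The stretch of 250 bases before the start site is given for Rgs5, which set the groups, for its companion marker Des, and for Fbln7 and S100a4, a higher and a lower gene described below (RefSeq, build GRCm38.p6, plus strand of the genome, which is the coding strand for all 4). Capitals mark matches, on either strand, to 4 motifs that were searched: the CArG box of serum response factor, CATTCC (the MCAT element of TEAD factors), TGGGAA (the core of the Notch effector RBPJ) and TTTATG (a form bound by Hox proteins of high paralogue number). Matches of TGGGAA and CATTCC can share letters.
Rgs5, chr1:169655251-169655500: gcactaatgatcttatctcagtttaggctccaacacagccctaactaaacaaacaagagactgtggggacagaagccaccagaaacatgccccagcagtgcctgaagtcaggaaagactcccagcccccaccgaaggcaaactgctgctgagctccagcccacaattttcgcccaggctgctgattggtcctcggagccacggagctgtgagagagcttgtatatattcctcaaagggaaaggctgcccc
Des, chr1:75360042-75360291: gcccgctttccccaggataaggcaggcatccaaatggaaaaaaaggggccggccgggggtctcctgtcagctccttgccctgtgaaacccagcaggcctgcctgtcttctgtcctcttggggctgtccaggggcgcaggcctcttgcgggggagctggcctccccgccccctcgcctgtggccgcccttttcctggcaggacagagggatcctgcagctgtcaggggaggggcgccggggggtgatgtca
Fbln7, chr2:128863682-128863931: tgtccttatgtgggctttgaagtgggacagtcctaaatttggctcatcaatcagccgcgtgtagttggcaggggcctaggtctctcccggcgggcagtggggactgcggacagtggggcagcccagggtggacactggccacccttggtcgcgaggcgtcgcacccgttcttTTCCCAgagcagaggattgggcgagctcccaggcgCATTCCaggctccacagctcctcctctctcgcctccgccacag
S100a4, chr3:90603520-90603769: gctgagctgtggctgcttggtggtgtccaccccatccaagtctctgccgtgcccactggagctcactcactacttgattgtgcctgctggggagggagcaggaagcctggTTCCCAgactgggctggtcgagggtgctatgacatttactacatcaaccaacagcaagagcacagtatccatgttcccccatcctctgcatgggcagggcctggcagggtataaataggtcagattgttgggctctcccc
Rgs5 and Des hold none of the 4 motifs in these letters. Fbln7 holds CATTCC from -43 to -38 and TGGGAA on the minus strand from -78 to -73, counted from the start site, and S100a4 holds TGGGAA on the minus strand from -140 to -135. A promoter was matched by symbol for 7648 of the genes tested. Among called genes a promoter was matched for 232 higher and 212 lower ones. The CArG box was found before 2.16% of higher (5 genes) and 1.42% of lower genes (3 genes), against 1.44% of the genes tested and 1.62% of all 27025 genes with a promoter in the table. TGGGAA was found before 29.7% of higher and 28.3% of lower genes, against 23.5% of the genes tested and 24.1% of all. CATTCC was found before 16.4% of higher and 15.1% of lower genes, against 12.4% of the genes tested and 14.4% of all. TTTATG was found before 6.03% of higher and 10.4% of lower genes, against 6.93% of the genes tested and 12.4% of all. These shares describe letters only.

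Hox genes of high paralogue number gave the largest differences. Of 15 posterior Hox genes in the table (paralogue number 6 and above), 11 passed the filter on low counts, 7 were higher in Rgs5-high cells, 1 was lower and 3 were not called. Their median log2 fold was 2.89, against 0.0028 over all genes tested, and 72.7% were called, against 5.90% over all genes. Hoxc10 had 44.7 and 45.1 CPM in Rgs5-high cells and 1.33 and 1.05 CPM in Rgs5-low cells (5.21 ± 0.32, adjusted p = 5.34e-12). Hoxa10 had 57.6 and 61.7 CPM in Rgs5-high cells and 0.332 and 4.21 CPM in Rgs5-low cells (4.58 ± 0.30, adjusted p = 1.62e-11). Both genes stand near the 5' end of their clusters and, as background, are expressed in the caudal trunk of the embryo. Hoxc8 had 28.8 and 31.1 CPM in Rgs5-high cells and 1.66 and 2.89 CPM in Rgs5-low cells (3.67 ± 0.31). Hoxa9 had 25.2 and 34.7 CPM in Rgs5-high cells and 1.99 and 3.42 CPM in Rgs5-low cells (3.45 ± 0.31). The other higher members were Hoxd9 (3.28 ± 0.64), Hoxc9 (2.89 ± 0.38) and Hoxc6 (2.56 ± 0.33). The transcripts of neighbouring Hox genes overlap, so the authors' counting may have split UMIs between neighbours.

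The B cluster did not follow the A and C clusters. Hoxb8 had 4.32 and 1.56 CPM in Rgs5-high cells and 11.6 and 7.10 CPM in Rgs5-low cells (-1.70 ± 0.44, adjusted p = 0.0173). Hoxb6 (-0.55 ± 0.30) and Hoxb7 (-0.49 ± 0.27) were not called. In Rgs5-low, Rgs5-middle and Rgs5-high order, Hoxb8 stood at 11.6, 18.6 and 4.32 CPM in library 1 and at 7.10, 14.6 and 1.56 CPM in library 2, so the cells between the groups were highest in both libraries. Hoxa7 had 40.6, 61.7 and 51.9 CPM in library 1 and 35.8, 55.6 and 51.8 CPM in library 2 in the same order and was not called between the outer groups (0.47 ± 0.15, adjusted p = 0.0535). Hoxc10 in that order stood at 1.33, 5.14 and 44.7 CPM and at 1.05, 8.64 and 45.1 CPM. Of the 8 anterior Hox genes tested (paralogue number 5 and below), 1 was higher, 1 was lower and 6 were not called (25% called, against 5.90% over all genes), with a median of -0.78. The lower one was Hoxb2, with 11.5 and 13.5 CPM in Rgs5-high cells and 26.3 and 22.9 CPM in Rgs5-low cells (-0.93 ± 0.24), and the higher one was Hoxc4 (2.31 ± 0.64), also of the C cluster.

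**Figure D3:**
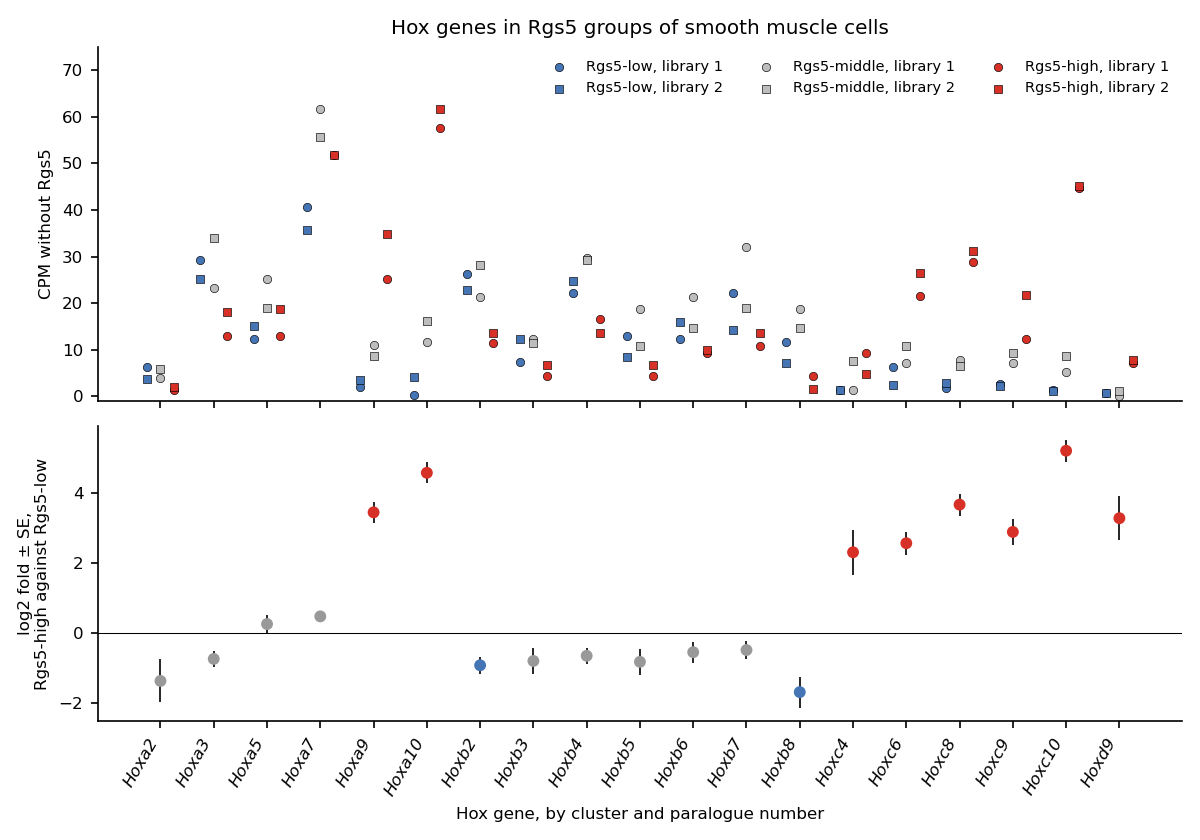
Top, CPM without Rgs5 of the 19 Hox genes tested in Rgs5-low, Rgs5-middle and Rgs5-high cells of each library; bottom, log2 fold of Rgs5-high over Rgs5-low cells with its standard error, red where called higher and blue where called lower. Genes of the A, C and D clusters from paralogue 8 up are higher in Rgs5-high cells, and Hoxb8 is highest in Rgs5-middle cells.

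Counted cell by cell, 62.3% and 80.3% of Rgs5-high cells had a UMI of at least 1 posterior Hox gene, against 32.2% and 34.5% of Rgs5-low cells (exact Clopper-Pearson 95% intervals 56.3 to 68.1 and 74.99 to 84.9 in Rgs5-high cells, 28.4 to 36.3 and 30.5 to 38.7 in Rgs5-low cells, counting error only). With cells thinned to 1300 UMIs the shares were 28.6% and 31.4% in Rgs5-high cells and 12.9% and 10.6% in Rgs5-low cells. Macro cells, which should lack these genes, had them in 0 of 89 and 6 of 78 cells at median depths of 2382 and 2958.5 UMIs. Endothelial and fibroblast cells also carried them, at 280 and 283 CPM in EC 1 and 152 and 128 CPM in Fibro 1, against 284 and 313 CPM in Rgs5-high and 105 and 91.0 CPM in Rgs5-low smooth muscle. Where along the aorta a cell came from is not given in the sources used here.

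Of 9 transcription factors known from the outflow tract and aortic arch, 3 were lower, 1 was higher and 5 were not called (44.4% called, against 5.90% over all genes), with a median of -0.06. Tbx20, a T-box factor of the developing heart and outflow tract, had 2.16 and 0.518 CPM in Rgs5-high cells and 15.3 and 21.3 CPM in Rgs5-low cells (-3.88 ± 0.47, adjusted p = 1.55e-06). Hand2, a bHLH factor of the heart and pharyngeal arches, had 8.64 and 8.81 CPM in Rgs5-high cells and 30.6 and 49.7 CPM in Rgs5-low cells (-2.22 ± 0.23, adjusted p = 1.28e-07). Gata6, a zinc finger factor of smooth muscle, was lower by less (-0.47 ± 0.12), and was not called in the cells without a posterior Hox UMI (-0.28). Tbx20 remained called in those cells (-7.73, adjusted p = 0.000219), on few UMIs. When the groups were set again on them it was not called (-1.41, adjusted p = 0.0827). In contrast to these, the homeobox gene Msx2 had 26 UMIs in Rgs5-high and 2 UMIs in Rgs5-low cells over both libraries, a ratio of 26.7 with an exact counting interval of 6.68 to 232. Msx2 remained called in the cells without a posterior Hox UMI (5.16, adjusted p = 5.48e-05).

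Because posterior Hox UMIs as a set moved with Rgs5, the comparison was repeated on the 1153 smooth muscle cells without any such UMI. Cells whose only such UMI was of Hoxa7, Hoxb6, Hoxb7 or Hoxb8 were left out too. Of the 1153 cells, 156 were Rgs5-high and 720 Rgs5-low by the limits above. Of 7728 genes tested in these cells 180 were called, 136 of them among the 589, and 3 of these in the opposite direction. Of the 519 main calls tested again, 481 kept their direction. Des (1.84), Fbln7 (3.25), Col8a1 (3.14), P2rx1 (2.18), Palld (1.99) and Fn1 (1.38) remained called as higher, and S100a4 (-2.22), Lgals3 (-2.44) and Emb (-1.21) as lower. Gja4 (0.93, adjusted p = 0.369), Igfbp5 (0.41, adjusted p = 0.435) and Hand2 (-0.98, adjusted p = 0.114) were no longer called. Among the 104 named genes other than Des, 34 lost their call without turning direction, 8 turned direction and 32 gave the same result. The rest were not tested in these cells, among them Ptger3, Adra1a, S1pr3, Plcxd3 and the posterior Hox genes. The last 2 counts include genes without a call in the main comparison, such as Fos among those that turned and Mgp among the same. When the limits were set again on these cells, Hand2 was called (-1.19, adjusted p = 0.00335). The cells left were shallower, at a median of 3676.5 and 6326 UMIs against 6557 and 7945 in cells with a posterior Hox UMI, so a cell without a UMI is not shown to lack the transcript.

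Receptors for vasoactive ligands were the next group with many higher members. Of 23 listed, 13 passed the filter, 7 were higher in Rgs5-high cells, 1 was lower and 5 were not called, and the median log2 fold was 0.84. The share called was 61.5%, against 5.90% over all genes. Ptger3, the EP3 receptor for prostaglandin E2, had 23.8 and 23.9 CPM in Rgs5-high cells and 1.33 and 1.31 CPM in Rgs5-low cells (4.13 ± 0.37, adjusted p = 6.82e-09). Adra1a, an alpha-1 adrenergic receptor that drives constriction by noradrenaline, had 12.2 and 11.9 CPM in Rgs5-high cells and 0.665 and 0.526 CPM in Rgs5-low cells (4.25 ± 0.57). Agtr1b, the second mouse gene for the type 1 angiotensin II receptor, had 18.7 and 20.2 CPM in Rgs5-high cells and 2.33 and 1.05 CPM in Rgs5-low cells (3.57 ± 0.40, adjusted p = 3.75e-07). These are receptors that couple to the G proteins on which RGS proteins act. The sphingosine 1-phosphate receptor S1pr3 had 6.48 and 31.6 CPM in Rgs5-high cells and 0.332 and 2.89 CPM in Rgs5-low cells (3.52 ± 0.44), and its Rgs5-high level differed widely between the aortas. P2rx1, an ion channel gated by ATP released from sympathetic nerves, had 128 and 178 CPM in Rgs5-high cells and 29.3 and 39.4 CPM in Rgs5-low cells (2.17 ± 0.12, adjusted p = 1.31e-12). Ednra, the endothelin receptor of smooth muscle, was higher by 1.19 ± 0.25 and the serotonin receptor Htr1b by 0.60 ± 0.10. Htr1b was not called in the cells without a posterior Hox UMI (0.29, adjusted p = 0.703), where Agtr1b (4.17) and P2rx1 remained called. Ptger3, Adra1a and S1pr3 were not tested in those cells. With groups set again on those cells Ednra was not called (0.91, adjusted p = 0.485). Npr1, the receptor of natriuretic peptides that raises cyclic GMP, was the lower one (-0.42), and was not called in the cells without a posterior Hox UMI (-0.08).

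Among the other RGS and G protein genes, 2 of 17 tested were higher and none was lower (11.8% called, against 5.90% over all genes), with a median of 0.04. Rgs7bp, which anchors RGS proteins of another class to the membrane, had 64.1 and 99.0 CPM in Rgs5-high cells and 42.2 and 43.6 CPM in Rgs5-low cells (0.97 ± 0.14, adjusted p = 1.68e-05). It was not called in the cells without a posterior Hox UMI (0.64, adjusted p = 0.369). Rgs2, which acts on Gq, had 39.6 and 62.7 CPM in Rgs5-high cells and 36.6 and 35.8 CPM in Rgs5-low cells (0.56 ± 0.17, adjusted p = 0.0438), most of it in library 2, and was not called in the cells without a posterior Hox UMI (0.27). Rgs4, the neighbour of Rgs5 on the chromosome, had 77.1 and 63.8 CPM in Rgs5-high cells and 63.2 and 68.9 CPM in Rgs5-low cells, and the groups overlapped (0.09 ± 0.12, adjusted p = 0.825). Plcxd3, a phospholipase C-like gene, had 13.68 and 16.1 CPM in Rgs5-high cells and 0.332 and 0.789 CPM in Rgs5-low cells (4.57 ± 0.56).

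Mural cell markers split. Gja4, the gap junction protein connexin 37, had 71.3 and 55.5 CPM in Rgs5-high cells and 25.6 and 19.7 CPM in Rgs5-low cells (1.499 ± 0.16, adjusted p = 1.08e-07). Kcnj8, the pore of the ATP-sensitive potassium channel of mural cells, had 63.4 and 45.1 CPM in Rgs5-high cells and 36.2 and 19.2 CPM in Rgs5-low cells (1.02 ± 0.16, adjusted p = 8.81e-05). Neither gene is particular to mural cells here. Gja4 was higher still in EC 1, at 481 and 466 CPM, and Kcnj8 in Fibro 1, at 113 and 107 CPM. What part endothelial or fibroblast transcripts have in these differences was not tested beyond the fits without cells with markers of another type. Cox4i2, a respiratory chain subunit found in lung and mural cells, was lower, with 5.04 and 8.81 CPM in Rgs5-high cells and 13.6 and 21.8 CPM in Rgs5-low cells (-1.31 ± 0.30). In the cells without a posterior Hox UMI Cox4i2 turned direction and was not called (0.09, adjusted p = 0.980). Of the 12 mural and pericyte genes tested these 3 were called (25%, against 5.90% over all genes), and Notch3 (0.26 ± 0.20), Pdgfrb (-0.33 ± 0.14) and Mcam (-0.07 ± 0.07) were not.

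Genes of the contractile apparatus differed by small folds. Of 20 tested, 9 were higher, none was lower and 11 were not called, and the median log2 fold was 0.15. The share called was 45%, against 5.90% over all genes. Tagln, the actin-binding transgelin, had 11164.5 and 10619.8 CPM in Rgs5-high cells and 9458 and 8938 CPM in Rgs5-low cells (0.26 ± 0.03, adjusted p = 4.03e-06). Acta2, smooth muscle actin, had 20714 and 16972 CPM in Rgs5-high cells and 17572 and 16468 CPM in Rgs5-low cells (0.16 ± 0.03, adjusted p = 0.00315). Myh11, smooth muscle myosin, was higher by 0.22 ± 0.05, the light chain Myl9 by 0.31 ± 0.04, and the tropomyosins Tpm2 by 0.30 ± 0.04 and Tpm1 by 0.26 ± 0.05, while the calponin Cnn1 was not called (0.09 ± 0.05). In the cells without a posterior Hox UMI the differences of Acta2 (-0.08), Tagln (-0.02) and Myh11 (-0.06) turned direction and were not called. Myl9 (0.13), Tpm2 (0.12) and Tpm1 (0.09) kept their direction there and were not called. Palld, an actin-bundling scaffold of dense bodies, stood apart with 242 and 294 CPM in Rgs5-high cells and 63.5 and 76.5 CPM in Rgs5-low cells (1.96 ± 0.09, adjusted p = 1.98e-14).

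Matrix genes moved in both directions. Fbln7, fibulin 7, a secreted adhesion protein, had 107 and 113 CPM in Rgs5-high cells and 12.3 and 12.1 CPM in Rgs5-low cells (3.19 ± 0.16, adjusted p = 6.43e-14). Fbln7 was higher still in the fibroblasts of Fibro 1, at 332 and 304 CPM. The 5 fibroblast markers summed to 451 and 428 CPM in Rgs5-high cells and 523 and 477 CPM in Rgs5-low cells. What part fibroblast transcripts have in the Fbln7 difference was not tested beyond the fits without cells with markers of another type. Col8a1, a short-chain collagen of vessel walls, had 74.2 and 148 CPM in Rgs5-high cells and 13.3 and 14.7 CPM in Rgs5-low cells (3.03 ± 0.17, adjusted p = 7.65e-13). Fibronectin (Fn1), which links matrix to integrins, had 1304 and 1861 CPM in Rgs5-high cells and 580 and 553 CPM in Rgs5-low cells (1.48 ± 0.09, adjusted p = 1.90e-12). The basement membrane chains Col4a1 (0.37 ± 0.07), Col4a2 (0.37 ± 0.08) and Lamc3 (1.24 ± 0.24) were higher, as was the fibrillar collagen Col3a1 (0.43 ± 0.05). Col4a1 (0.42), Col4a2 (0.19) and Col3a1 (0.24) were not called in the cells without a posterior Hox UMI, where Lamc3 (2.40) remained called.

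Of 18 elastic fibre genes 1 was higher, 5 were lower and 12 were not called (33.3% called, against 5.90% over all genes), with a median of -0.19. Mfap4, a protein of the elastic microfibril, had 502 and 349 CPM in Rgs5-high cells and 824 and 808 CPM in Rgs5-low cells (-0.95 ± 0.08, adjusted p = 3.06e-09). Mfap5 (-0.64 ± 0.12) and elastin itself (Eln) were lower too. Eln had 1715 and 1194 CPM in Rgs5-high cells and 2086 and 1370 CPM in Rgs5-low cells, a small difference within each library that is less than the gap between libraries (-0.23 ± 0.05, adjusted p = 0.00413). In the cells without a posterior Hox UMI Eln was not called (-0.07), and Mfap5 turned direction (0.41, adjusted p = 0.0508). With groups set again on those cells Mfap5 was called as higher (0.34, adjusted p = 0.0414). Of 13 proteoglycan genes 3 were higher, 5 were lower and 5 were not called (61.5% called). Aggrecan (Acan), the large proteoglycan of cartilage, was lower (-1.92 ± 0.35), as was Prelp (-1.15 ± 0.10), which binds collagen to basement membrane, while versican (Vcan, 0.77 ± 0.09) and the link protein Hapln1 (2.79 ± 0.50) were higher. Acan was not called in the cells without a posterior Hox UMI (-0.48), where Prelp (-1.33) and Vcan (1.31) remained called. Mgp, the inhibitor of wall calcification, was not called (-0.11 ± 0.05).

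S100a4, a calcium-binding protein linked to cell motility, was among the lower genes. It had 94.4 and 89.7 CPM in Rgs5-high cells and 533 and 523 CPM in Rgs5-low cells, values that hardly differ between the aortas (-2.50 ± 0.08, adjusted p = 8.18e-18). An S100a4 UMI was found in 25.4% and 32.2% of Rgs5-high cells and in 63.4% and 68.6% of Rgs5-low cells, against 25% and 24.2% of EC 1 cells. S100a4 is also high in immune populations, at 737 and 1036 CPM in Mono 2. The 5 immune markers summed to 207 and 138 CPM in Rgs5-high cells and 197 and 137 CPM in Rgs5-low cells. What part immune transcripts have in the S100a4 difference was not tested beyond the fits without cells with markers of another type. Lgals3, galectin 3, a sugar-binding protein of macrophages and modulated smooth muscle, had 13.68 and 17.1 CPM in Rgs5-high cells and 85.1 and 86.2 CPM in Rgs5-low cells (-2.44 ± 0.17, adjusted p = 9.82e-11). Emb, the adhesion protein embigin, had 15.8 and 18.7 CPM in Rgs5-high cells and 100 and 73.9 CPM in Rgs5-low cells (-2.27 ± 0.17). When every smooth muscle cell with at least 2 UMIs of a narrower marker list of another type was left out, 426 of 8466 genes were called.

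Of 11 genes listed for modulated smooth muscle, the state that smooth muscle takes on in injured or atherosclerotic walls, 2 were higher (Fn1 and Col8a1) and 4 were lower (Lgals3, Timp1, Vcam1 and Cd44), with a median of -0.45. The share called was 54.5%, against 5.90% over all genes. Vcam1, the adhesion molecule for leukocytes, had 28.8 and 7.78 CPM in Rgs5-high cells and 72.5 and 31.0 CPM in Rgs5-low cells (-1.54 ± 0.20, adjusted p = 4.24e-06). The proteinase inhibitor Timp1 had 14.4 and 10.4 CPM in Rgs5-high cells and 73.8 and 14.7 CPM in Rgs5-low cells (-1.67 ± 0.35), so most of its difference came from library 1. The hyaluronan receptor Cd44 was lower by less (-0.89 ± 0.24). Vcam1 (-0.21), Timp1 (-0.81) and Cd44 (-0.60) were not called in the cells without a posterior Hox UMI, where Lgals3, Fn1 and Col8a1 remained called.

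**Figure D4:**
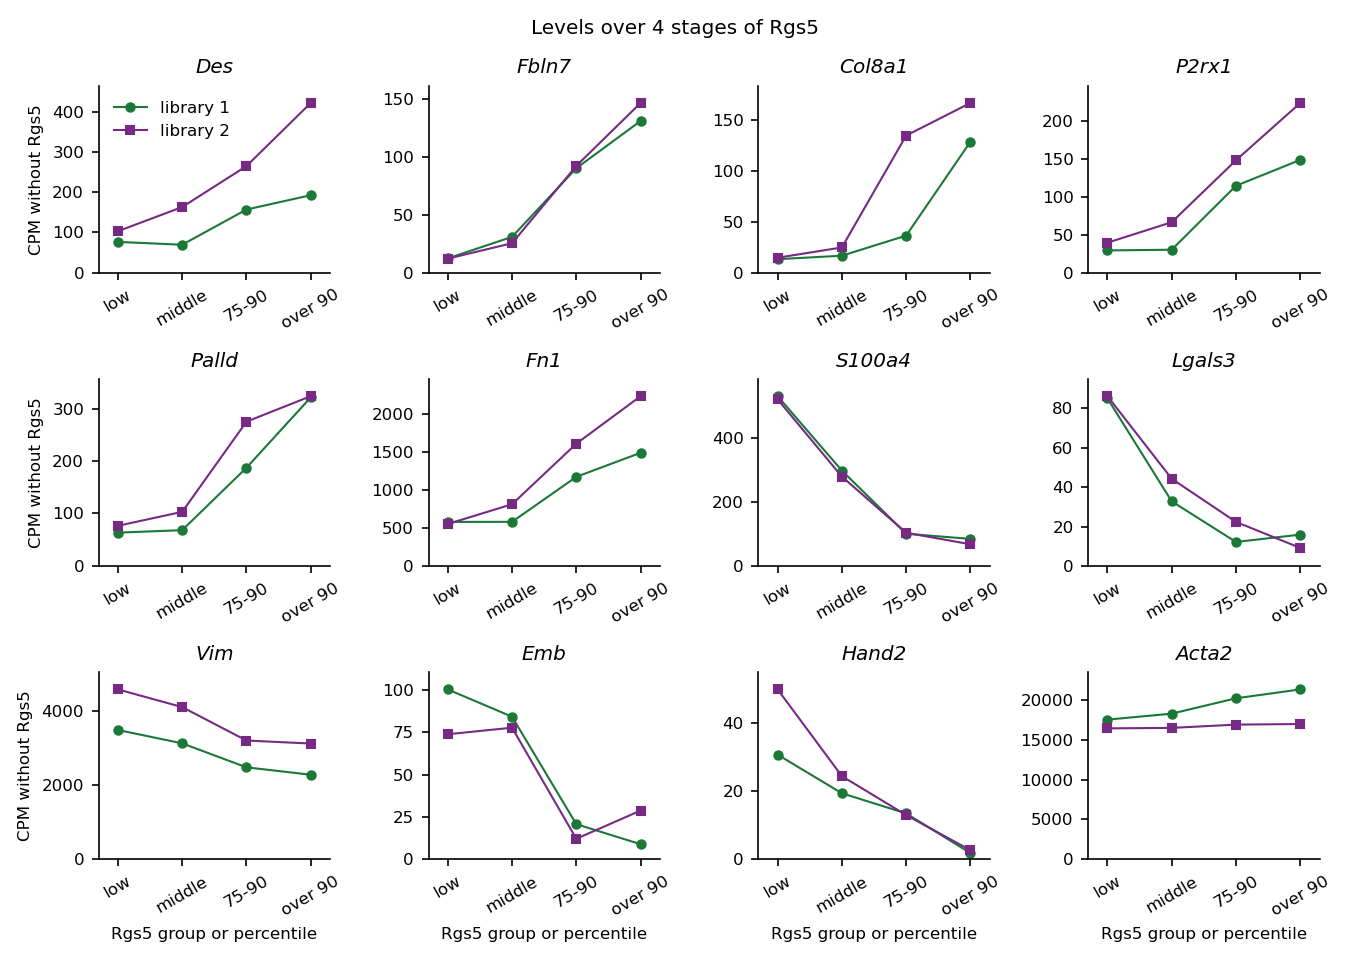
CPM without Rgs5 (y axis, from 0) of 12 genes in Rgs5-low cells, Rgs5-middle cells, cells between the 75th and 90th percentile and cells above the 90th percentile of Rgs5 (x axis), with 1 line for each library. S100a4 falls over the first 3 stages in both libraries, while Palld and P2rx1 of library 1 stay level up to the middle stage and are higher above it.

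The cells between the groups entered no contrast. For 327 of the 589 called genes (55.5%) their CPM lay between the Rgs5-low and Rgs5-high values in both libraries. The fit includes the sums of these cells, so the share is a description. From Rgs5-low cells through Rgs5-middle cells and cells up to the 90th percentile to cells above it, S100a4 stood at 533, 299, 101 and 84.8 CPM in library 1 and at 523, 280, 104 and 67.9 CPM in library 2. Fbln7 over the same stages stood at 12.3, 30.9, 90.01 and 131 CPM and at 12.1, 25.4, 92.0 and 146 CPM. Both moved in 1 direction throughout. Emb stood at 100, 84.2, 20.7 and 8.83 CPM and at 73.9, 77.8, 12.0 and 28.7 CPM, so it was alike in the Rgs5-low and Rgs5-middle cells and low above them. Des in library 1 stood at 76.5, 69.4, 157 and 192 CPM, and in library 2 at 103, 163, 265 and 422 CPM.

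Signalling lists held calls in both directions, against 5.90% called over all genes. In the TGF beta and BMP list 2 of 24 were higher and 5 lower (29.2% called), with a median of -0.17. In the Wnt list 2 of 13 were higher and 4 lower (46.2% called), and in the insulin-like growth factor list 2 of 7 were higher and 2 lower (57.1% called). Among the ligands Tgfb3 was higher (0.64 ± 0.11) and Tgfb1 (-0.55 ± 0.17) and Tgfb2 (-0.57 ± 0.12) were lower. Tgfb1 was just under the threshold (adjusted p = 0.0463) and lost its call in 14 of the alternatives and Tgfb2 in 7, and in the cells without a posterior Hox UMI none of the 3 was called (Tgfb3 0.36, Tgfb1 -0.22, Tgfb2 -0.49). Wif1, a secreted inhibitor of Wnt, had 23.1 and 13.5 CPM in Rgs5-high cells and 54.2 and 43.1 CPM in Rgs5-low cells (-1.43 ± 0.19). The binding proteins of insulin-like growth factor moved apart: Igfbp5 was higher (1.105 ± 0.12; 0.41 and not called without posterior Hox cells) and Igfbp2 lower (-0.998 ± 0.13). In the nitric oxide and cGMP list none of 10 was higher and 2 were lower (20% called), Gucy1b3, a subunit of the nitric oxide receptor (-0.37 ± 0.08), and the phosphodiesterase Pde1c, with 3 UMIs in Rgs5-high and 42 UMIs in Rgs5-low cells, a ratio of 0.147 with a counting interval of 0.0291 to 0.459. Of 16 ion channel and calcium handling genes (18.8% called), Kcnj8 was higher and 2 were lower, the calcium-activated chloride channel Ano1 (-1.47 ± 0.23; -0.15 and not called without posterior Hox cells) and phospholamban (Pln, -1.15 ± 0.24), the brake on the calcium pump of the reticulum. Without posterior Hox cells Pln (-0.77) and Gucy1b3 (-0.30) were not called, while Kcnj8 (1.86), Wif1 (-1.78) and Igfbp2 (-1.81) remained called. None of 8 Notch genes, 9 Kruppel-like factors, 9 interferon response genes or 42 ribosomal protein genes was called.

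**Figure D5:**
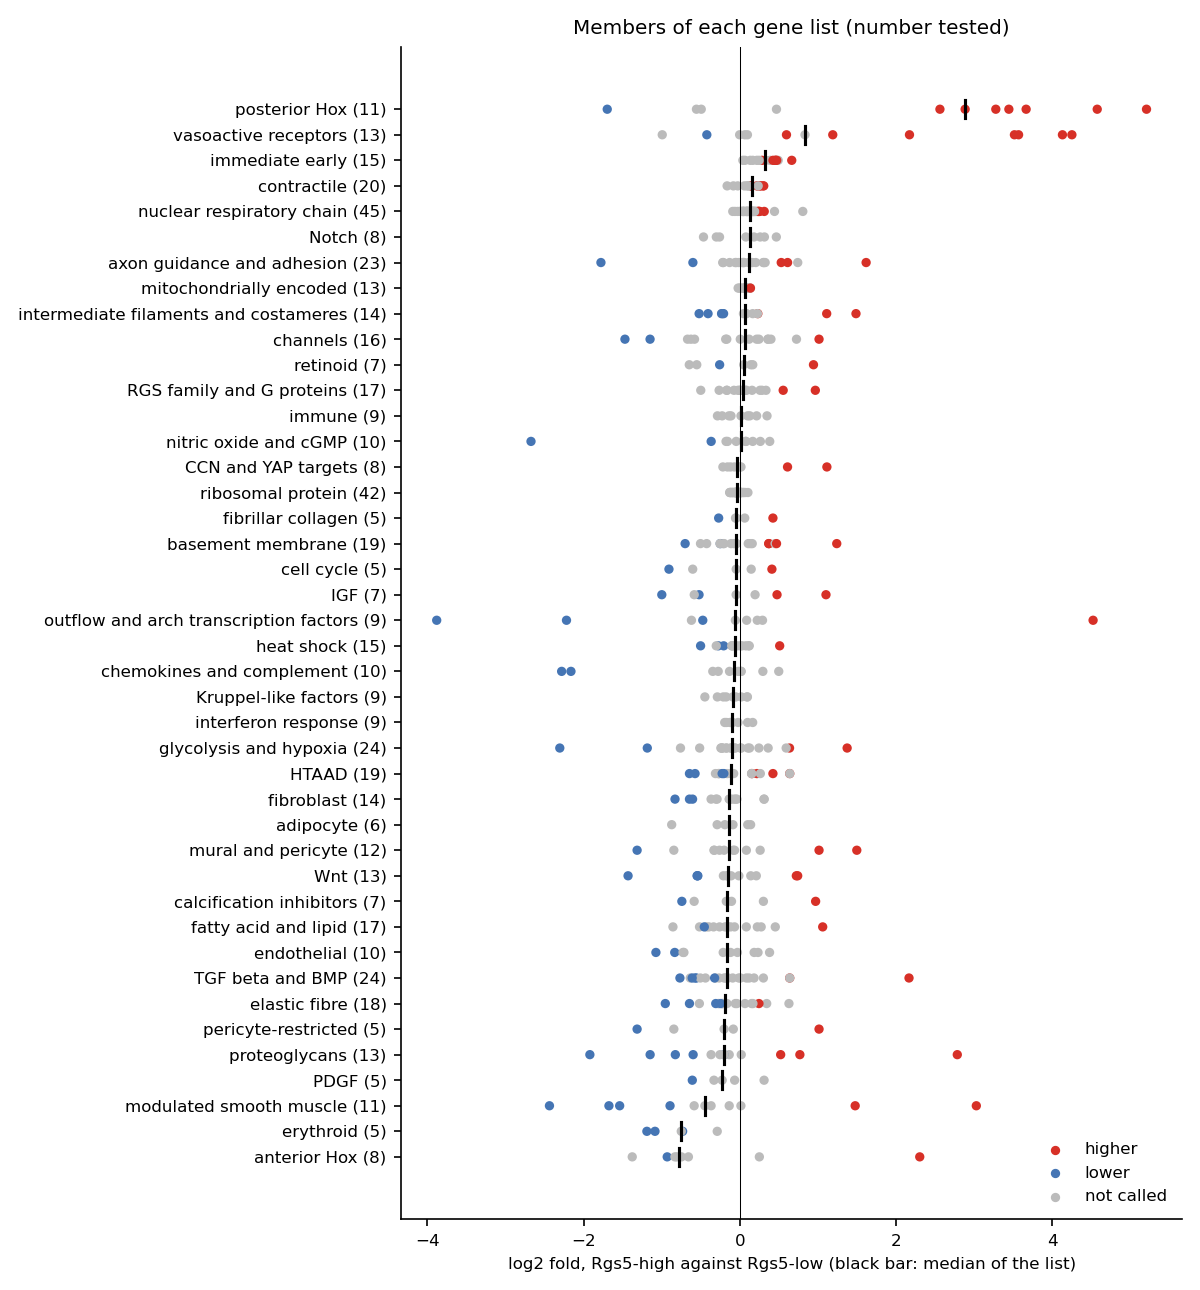
Log2 fold of Rgs5-high over Rgs5-low cells (x axis) of each tested member of the gene lists with at least 5 genes tested (rows, number tested in brackets), red where called higher, blue where called lower, grey otherwise; a black bar marks the median of the list. Posterior Hox genes have the highest median, 2.89, and anterior Hox genes the lowest, -0.78.

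Of 15 immediate early genes, which dissociation of tissue is known to induce, 6 were higher, none was lower, and the median was 0.33. The share called was 40%, against 5.90% over all genes. Zfp36 had 120 and 139 CPM in Rgs5-high cells and 69.5 and 94.9 CPM in Rgs5-low cells (0.67 ± 0.11), Dusp1 was higher by 0.47 ± 0.07 and Jun by 0.46 ± 0.07, and Fos was not called (0.39 ± 0.15, adjusted p = 0.154). Zfp36 (0.43), Dusp1 (0.30) and Jun (0.21) were not called in the cells without a posterior Hox UMI. The metallothionein Mt2, which binds zinc and responds to glucocorticoids and stress, was lower, with 150 and 238 CPM in Rgs5-high cells and 336 and 733 CPM in Rgs5-low cells (-1.42 ± 0.09, adjusted p = 5.34e-12). The small heat shock proteins of muscle differed in sign: Hspb1 was higher (0.51 ± 0.07) and Hspb6, which relaxes smooth muscle when phosphorylated, was lower (-0.50 ± 0.07). Ndrg1, a gene induced by hypoxia, had 142 and 167 CPM in Rgs5-high cells and 60.8 and 60.5 CPM in Rgs5-low cells (1.38 ± 0.10, adjusted p = 2.07e-10). The glycolysis and hypoxia list as a whole held 2 higher and 2 lower genes of 24 tested (16.7% called, against 5.90% over all genes). The median of that list was -0.10. The retinol carrier Rbp4 had 655 and 638 CPM in Rgs5-high cells and 394 and 297 CPM in Rgs5-low cells (0.94 ± 0.08, adjusted p = 4.88e-09). It was not called in the cells without a posterior Hox UMI (0.40, adjusted p = 0.0527).

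Several genes with large folds had few UMIs. Pde6h, a phosphodiesterase subunit of cone photoreceptors, had 10.8 and 24.9 CPM in Rgs5-high cells and 4.32 and 1.31 CPM in Rgs5-low cells (2.82 ± 0.46). Kcnt2, a sodium-activated potassium channel, had 2 UMIs in Rgs5-high and 55 UMIs in Rgs5-low cells, a ratio of 0.0747 with a counting interval of 0.00882 to 0.283. The keratin Krt18 had 3 UMIs in Rgs5-high and 56 UMIs in Rgs5-low cells, a ratio of 0.110 (0.0220 to 0.338). Dlgap1, a postsynaptic scaffold protein, was lower by 2.74 on the log2 scale (SE 0.46), the kinase Pak1 (-2.62 ± 0.62), the phosphatase regulator Phactr3 (-2.60 ± 0.52) and the activin antagonist Fst (-2.55 ± 0.51) by similar amounts, and so were the genes 9930111J21Rik2 (-2.37 ± 0.51) and RP23-455C13.7 (-2.25 ± 0.41).

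Lists of other cell types also held calls: 20% of the endothelial, 21.4% of the fibroblast, 50% of the Schwann and 60% of the erythroid genes tested, against 5.90% over all genes. Pecam1 (-0.83 ± 0.16) and Esam (-1.07 ± 0.21), which endothelial cells use at their junctions, were lower in Rgs5-high cells, and the other 8 endothelial genes tested were not called. In the cells without a posterior Hox UMI Pecam1 (-0.13) and Esam (-0.62) were not called. The fibroblast genes Gsn (-0.60 ± 0.05), Col14a1 (-0.83 ± 0.11) and Mfap5 were lower and the other 11 tested were not called. S100b (2.15 ± 0.31) and Gpm6b (1.45 ± 0.37), both listed for Schwann cells, were higher. The 3 defining Schwann markers summed to 4.30 and 4.13 CPM in Rgs5-high cells and 4.65 and 8.41 CPM in Rgs5-low cells, with Sox10 at 0 and 0 UMIs in Rgs5-high cells and 1 and 0 in Rgs5-low cells. What part Schwann transcripts have in these differences was not tested beyond the fits without cells with markers of another type. The guidance cue Slit2 was higher (1.62 ± 0.39). Of 5 erythroid genes 3 were lower, among them Hba-a1 (-1.08 ± 0.17), along with the haemoglobin sums given above. None of 9 immune genes was called.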

How the data were processed

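The deposited table holds counts of UMIs for 16971 genes in 5451 cells, and per the submitters' processing notes the authors made it with Cell Ranger 2.1. Build and annotation are not given in the sources used here. Cell names (10 populations) are the authors'. The barcode number gives library 1 or 2, and which aorta each is, is not stated. Deposited cells have 1322 to 14968 UMIs and at most 24.9% mitochondrial UMIs, and library totals are 11104066 and 19484171 UMIs.

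The members, gene lists and genes named were chosen with earlier results of these data known. UMIs of VSMC were summed per library and Rgs5 group (6 sums), Rgs5 was left out, and genes were kept by filterByExpr, scaled by TMM and tested by the quasi-likelihood test of edgeR 4.0.16 in R 4.3.3, with terms for group and library, which leaves 2 residual degrees of freedom, and Benjamini-Hochberg adjustment over all genes. The library is the block, since groups of 1 library come from 1 aorta. Folds within a library use a prior count of 2. The rule names 12 called genes a direction by size of fold (at least 50 UMIs, same sign in both libraries), up to 3 called members of each list, and a fixed set that includes Des and the main contractile genes. Outside the rule, and picked with their values known, are Cd44, Col4a1, Col4a2, Ednra, Fn1, Gata6, Gm26870, Hoxa7, Hoxb5, Hoxb6, Hoxb7, Hoxb8, Hoxc6, Hoxd9, Htr1b, Mt2, Npr1, P2rx1, Palld, Tgfb1, Vcam1 and Vcan. Doublets were called with Scrublet in scanpy 1.11.5 (58 and 26 cells; 33 of them VSMC) and kept in the comparison; 2 and 1 were Rgs5-high and 14 and 7 Rgs5-low. Shares have exact 95% intervals, which cover counting error only. The fit was tested on simulated data. Alternatives included DESeq2 1.42.0. Sums and figures were made in Python 3.11.15 (pandas 2.3.3, numpy 2.4.6, matplotlib 3.10.9, scipy 1.17.1).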

Additional observations from a re-analysis of the deposited data

How the results depend on the processing

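The count of 589 called genes (302 higher, 287 lower) stayed within 1.5 times under RLE size factors, no filter on low counts, only the high and low sums, groups set within 5 bins of depth, limits at the 90th and 25th percentile, Rgs5 UMIs not divided by the total, and without doublets, cells over 10% mitochondrial UMIs, or the 10% shallowest and deepest cells (443 to 721). It was 165 (89 higher, 76 lower) by DESeq2, 88 (52, 36) with no replicate block, 221 (124, 97) with sums of all other populations in the fit, 151 (81, 70) with cells thinned to 1300 UMIs, 347 (163, 184) with groups set on 1 of 2 parts of the UMIs and sums from the part not used, and 91 (46, 45) on the 396 cells left without markers of another type. The cause was not tested. Fits added after seeing the data gave 614 without haemoglobin genes, 426 with narrower marker lists, and 180 (100, 80) and 161 (88, 73) without cells with a posterior Hox UMI, the groups kept or set again; these last fits have fewer cells and genes. All 589 signs were kept by DESeq2 and with no replicate block. Signs were kept by 437 of 440 main calls tested after thinning, 382 of 400 without cells with markers of another type, 547 of 548 with the narrower lists, and 481 of 519 (groups kept) and 463 of 520 (groups set again) without cells with a posterior Hox UMI, where 3 genes were called in the opposite direction in each. Mfap5 is one of them with groups set again (adjusted p = 0.0414).

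Des was called in every fit but that with no replicate block (1.501, adjusted p = 0.136); its fold was 1.16 in library 1 alone and 1.66 in library 2 alone, and 1.31 to 1.95 over the fits. Gm26870 turned to -2.54 in library 2 alone, against 4.85 in library 1 alone. Thinning turned Hoxa7 (-0.063) and Rgs4 (-0.26), and the narrower marker lists turned Rgs4 (-0.044). Without cells with a posterior Hox UMI, groups kept, signs turned for Fos (-0.24), Tagln (-0.024), Myh11 (-0.057), Acta2 (-0.080), Cnn1 (-0.11), Mcam (0.019), Mfap5 (0.41) and Cox4i2 (0.088). With groups set again they turned for Igfbp5 (-0.00035), Rgs2 (-0.18), Fos (-0.32), Tpm1 (-0.0098), Notch3 (-0.037), Tagln (-0.057), Myh11 (-0.070), Acta2 (-0.081), Cnn1 (-0.085), Npr1 (0.093), Mfap5 (0.34), Hoxb5 (0.0075), Pecam1 (0.063), Hoxb2 (0.037), Cox4i2 (0.19) and Ano1 (0.15). Of the named genes that kept their sign there, 34 lost their calls with groups kept and 31 with groups set again. Hand2 (-0.98, groups kept) and Tbx20 (-1.41, groups set again) are among them. With groups kept Tbx20 was still called (-7.73). Of the values for named genes over all alternatives, 28 turned direction in all. Genes with few UMIs per cell are limited by depth, and with 2 aortas of 1 group no value can be compared between conditions.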
